A study of Mus musculus with 12 samples.

Results

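Immediate-early genes are switched on within minutes of a stimulus without new protein synthesis, and most of their transcripts are short-lived. The genes followed here in mouse liver are Fos, Fosb, Jun, Junb and Jund, Egr1, Atf3, Ier2, Ier3 and Myc. They were chosen by symbol, and all 10 were found among the 50559 genes of the deposited count tables. Livers came from C57BL/6N mice in 4 groups of 3 libraries. NCD mice ate normal chow and HFD mice a high-fat diet with 60% of its energy from fat, both for 12 weeks. The HFD+C1 and HFD+C2 mice ate the same high-fat diet and were given daily injections into the peritoneum, 5 mg/kg of C1 or of C2, over 12 weeks. The series title calls C1 and C2 inhibitors of CYP4A, the cytochrome P450 enzymes that hydroxylate fatty acids. Age, sex, the injection given to the other groups, the hour of tissue collection and the interval after the last injection are not stated in the labels used here.

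FOS proteins pair with JUN proteins through a leucine zipper to form the transcription factor AP-1, and ATF3 is a related zipper protein induced by many kinds of stress. EGR1 is a zinc finger factor induced through the ERK kinases and serum response factor, and MYC, with its partner MAX, drives genes of growth and ribosome production. IER2 and IER3 are small proteins named for the same rapid induction. In liver, several of these genes respond within minutes to hormones, feeding, injury or handling.

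Of the 10 genes, 7 had a promoter in RefSeq's table of the mouse genome (GRCm38.p6): Fos, Fosb, Jun, Junb, Jund, Atf3 and Ier3. The 120 bases before the transcription start are printed for Fos, Jun and Atf3, the 3 members whose fitted log2 change was above 1 on the high-fat diet. Capitals mark a cyclic AMP response element (CRE) half-site TGACG on either strand, a CRE of the form TGACNTCA, or a TATA box TATAAA.
Fos, chr12:85473770-85473889, plus strand: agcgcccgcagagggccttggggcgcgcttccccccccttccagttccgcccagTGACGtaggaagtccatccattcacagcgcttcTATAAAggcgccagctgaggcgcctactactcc
Jun, chr4:95052223-95052342, minus strand: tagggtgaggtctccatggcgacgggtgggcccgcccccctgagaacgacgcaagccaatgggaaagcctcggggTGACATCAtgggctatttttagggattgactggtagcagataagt
Atf3, chr1:191183334-191183453, minus strand: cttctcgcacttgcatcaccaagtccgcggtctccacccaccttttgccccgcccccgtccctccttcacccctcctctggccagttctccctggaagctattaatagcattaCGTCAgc

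In these windows the half-site lay 66 to 62 bases before the start of Fos and, on the other strand, 7 to 3 bases before that of Atf3. The TGACATCA of Jun lay 45 to 38 bases before its start. Over the 250 bases before the start, the half-site TGACG was found in 4 of the 7 promoters (Fos, Fosb, Junb and Atf3) and in 17.9% of 32536 mouse promoters of that length. TGACNTCA was found in 1 of 7 (Jun) and in 7.43% of all promoters. The TATA box was found in 1 of 7 (Fos) and in 12.3% of all. The EGR site GCGNGGGCG was found in 1 of 7 (Fosb) and in 4.74% of all. The AP-1 site TGANTCA was found in 0 of 7 and in 6.73% of all, and the CArG box, bound by serum response factor, in 0 of 7 and in 1.48% of all. For Junb and Jund the bases that follow RefSeq's start were not found in a GENCODE M21 transcript, so their windows may not sit at the start used in liver. Both strands were searched, but a site further than 250 bases before the start would not be seen. Egr1, Ier2 and Myc had no promoter to search. These are matches of letters, and binding was not measured.

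Reads counted in genes ranged from 4281210 to 32124248 per library. Levels are given as CPM, reads of a gene scaled to the library's effective size, which is its total in genes times a TMM factor (0.865 to 1.18), a scaling that takes most genes not to differ between libraries. A single read was worth 0.0332 to 0.211 CPM. A total of 58.2% of the reads of NCD replicate 1 and 47.1% of those of HFD+C2 replicate 1 were not assigned to a gene, against 27.3% to 40.7% in the other libraries; these 2 libraries also correlated least with their own groups (0.912 to 0.949, against 0.978 to 0.994 for all other pairs, over 8472 genes). Members' values without these libraries are given where they move by over 1.5 times or change a call. The 6 hepatocyte markers summed to between 28600 CPM (NCD replicate 1) and 150000 CPM, and adipocyte markers to at most 0.946 CPM. In whole liver, fewer cells of a type and less RNA per cell cannot be told apart.

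**Figure D1:**
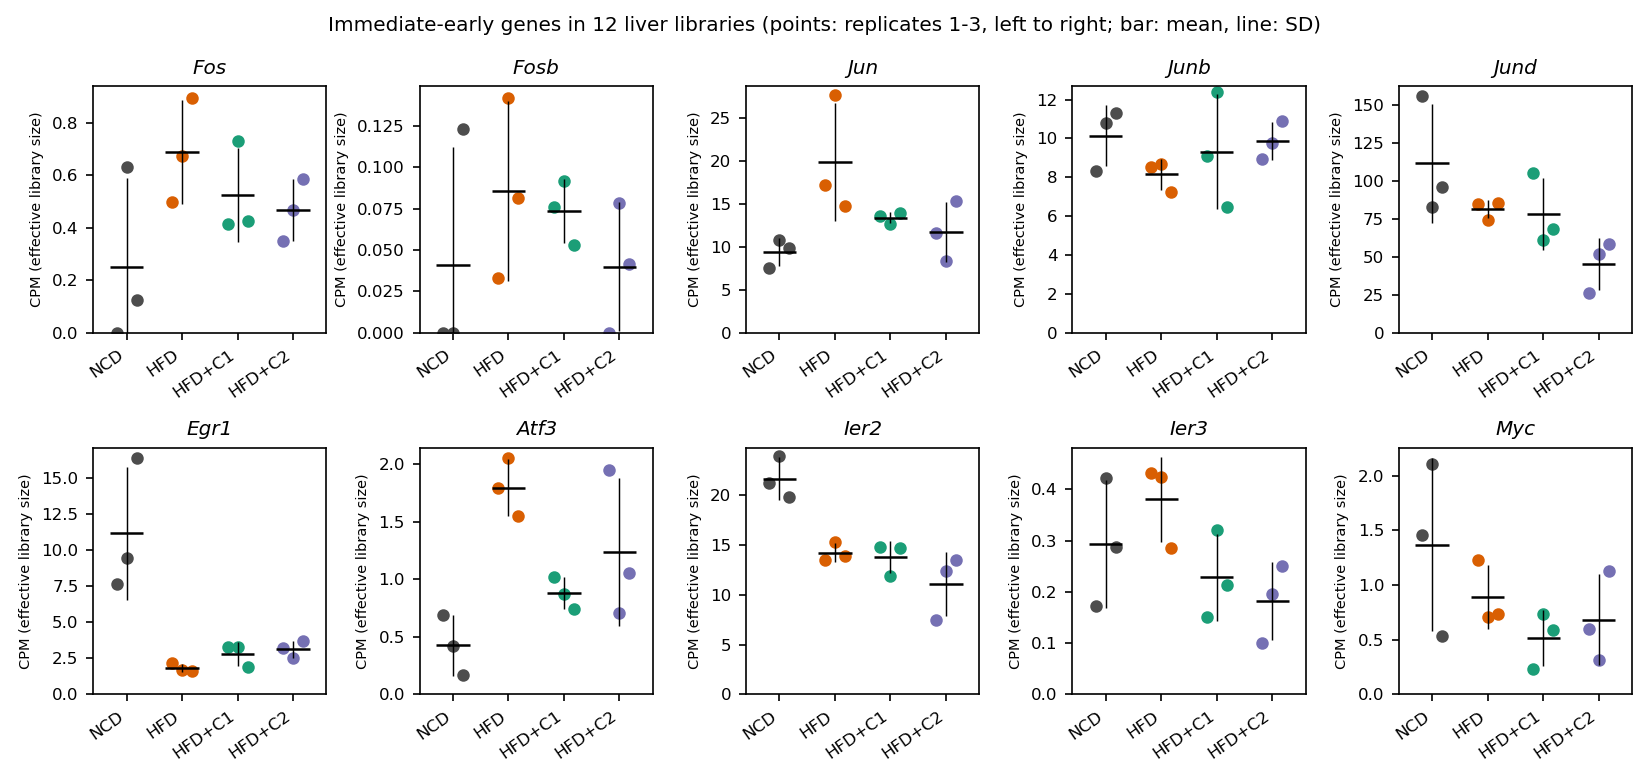
Level of each of the 10 genes in CPM of the effective library size (vertical axis, linear from 0) in the 12 libraries, grouped by diet and compound. Points are replicates, bars are means and thin lines are 1 SD, cut at 0; the 3 NCD libraries of Egr1 (7.65 to 16.4 CPM) lie above all 9 others.

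The genes differed widely in abundance. Per kilobase of exon, Jund was the most abundant member in HFD liver at 48.8 ± 3.62 CPM per kilobase (SD, n = 3), followed by Ier2 (9.36 ± 0.618), Jun (6.23 ± 2.16) and Junb (3.55 ± 0.348). Atf3 (0.834 ± 0.118), Egr1 (0.408 ± 0.0642), Ier3 (0.336 ± 0.0733), Myc (0.327 ± 0.108) and Fos (0.293 ± 0.0846) were all below 1 CPM per kilobase, and Fosb was at 0.0137 ± 0.0087. The ranges of Egr1, Ier3, Myc and Fos in HFD overlapped, so no order is given among them. In NCD liver the order differed: Egr1, at 2.49 ± 1.03 CPM per kilobase, stood next to Jun (2.94 ± 0.514), and the ranges of these 2 genes overlapped.

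The first comparison, HFD against NCD, asked which of these genes differ with the diet. Egr1 fell: 1 of the 8 members tested passed edgeR's threshold (adjusted p under 0.05 over all genes tested), against 6.03% of the 13864 genes tested, or 3.44% in the lower direction. Of the others, Jun and Atf3 stood higher in every HFD library than in any NCD library, and Ier2 lower. Jun, Atf3 and Ier2 were not called (edgeR adjusted p 0.052, 0.0688 and 0.0766). They ranked 904th, 1420th and 1644th by p, where 836 genes were called. For 4 of these 8 members every HFD library lay on one side of every NCD library, as for 37.1% of all genes tested, and 4 of the 8 had an unadjusted p under 0.05, against 28.9% of all. The median log2 change was -0.36 over the 8 members, with 5 below 0, and -0.0216 over all genes tested, with 51.5% below 0. DESeq2 called 4 of the 8, Egr1, Jun, Atf3 and Ier2, and 16.6% of all genes. edgeR also called those 4 when NCD replicate 1 was left out, with 13.7% of all genes. Fosb and Ier3 had too few reads for the test, which needed an average of 10 reads or more across the 6 libraries. Fos and Atf3 passed that filter through their HFD reads alone, so these counts and medians over the tested members are descriptions only.

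Egr1 was at 7.65, 9.49 and 16.4 CPM in NCD replicates 1 to 3, and at 2.16, 1.70 and 1.63 CPM in HFD. The lowest NCD library thus stood well above the highest HFD library. Its log2 change was -2.61 (standard error 0.34; edgeR, adjusted p 0.00927), or 6.08-fold lower, and Egr1 ranked 54th of the 13864 genes by p. Egr1 encodes a factor with a set of direct target genes in growth and metabolism, and its message is short-lived. Its call was lost without any 1 HFD library: the log2 change was then -2.73, -2.54 and -2.52 without HFD replicates 1, 2 and 3 (edgeR adjusted p 0.0798, 0.0549 and 0.0867), where only 23, 131 and 25 of all genes were called; it held without any 1 NCD library, where the log2 change ran from -2.87 to -2.19.

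Jun, the main JUN partner of FOS, was at 7.57, 10.8 and 9.82 CPM in NCD and at 17.2, 27.7 and 14.7 CPM in HFD. Every HFD library was above every NCD library, with HFD replicate 2 highest. The fitted difference was 1.11 on the log2 scale (95% interval 0.48 to 1.75; edgeR adjusted p 0.052). Without HFD replicate 2 it was 0.81 (edgeR adjusted p 0.159), and without NCD replicate 1 it was 0.97 (edgeR adjusted p 0.0239). DESeq2 called Jun on all 6 libraries (adjusted p 0.00697).

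Atf3 was at 0.688, 0.422 and 0.164 CPM in NCD, from 8, 2 and 4 reads, and at 1.79, 2.05 and 1.55 CPM in HFD, from 54, 58 and 38 reads. The groups did not overlap. Atf3 entered the test through its HFD reads, so the values that follow are a description. On the log2 scale HFD was 2.18 above NCD (95% interval 0.77 to 3.59; edgeR adjusted p 0.0688). Without NCD replicate 1 it was 3.04 (edgeR adjusted p 0.00301), and DESeq2 on all 6 libraries gave 2.18 (adjusted p 0.0204).

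Ier2 was at 21.3, 24.0 and 19.8 CPM in NCD and at 13.5, 15.3 and 13.9 CPM in HFD, with no overlap. Its log2 change was -0.58 (95% interval -0.98 to -0.19; edgeR adjusted p 0.0766). It was called without NCD replicate 1 (-0.60, edgeR adjusted p 0.0353) and by DESeq2 (-0.59, adjusted p 0.021).

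Fos was near the floor of counting in chow liver, with 0, 3 and 3 reads in NCD replicates 1 to 3 (0, 0.633 and 0.123 CPM). In HFD it had 15, 19 and 22 reads (0.498, 0.672 and 0.895 CPM). The ranges overlapped because 3 reads in NCD replicate 2, the shallowest library, equal 0.633 CPM. Pooled over libraries, 56 reads in HFD against 6 in NCD gave a ratio of 4.58 per effective read, with an exact 95% interval for counting error alone of 1.98 to 13.0. The test across libraries, which includes the spread between them, gave 1.96 on the log2 scale (95% interval -0.28 to 4.20; edgeR adjusted p 0.221). Leaving out NCD replicates 1, 2 and 3 in turn gave 1.57, 3.12 and 1.63, none of them called, and without any 1 HFD library Fos was under the filter.

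Junb, Jund and Myc gave overlapping groups. Junb was at 8.34 to 11.3 CPM in NCD and 7.24 to 8.71 CPM in HFD (log2 change -0.29, 95% interval -0.77 to 0.19). Jund was at 156, 82.7 and 95.8 CPM in NCD and at 84.6, 74.4 and 85.2 CPM in HFD (log2 change -0.43, 95% interval -0.99 to 0.13), and the highest value was that of NCD replicate 1. Without that library the log2 change was -0.13 for Jund and -0.44 for Junb. For Myc, NCD held 0.534 to 2.11 CPM and HFD 0.708 to 1.23 CPM, from 10 to 37 reads (log2 change -0.51, 95% interval -1.95 to 0.93). Leaving out 1 library moved Myc between -0.94 (without NCD replicate 3) and -0.07 (without NCD replicate 2), with -0.12 without NCD replicate 1. With CPM of the gene total alone, without TMM factors, Junb and Jund did not overlap and were lower in HFD.

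Fosb, which makes a partner of JUN with a long-lived splice form, had 0, 0 and 3 reads in NCD and 1, 4 and 2 in HFD. Ier3, a regulator of survival signalling, had 2, 2 and 7 reads in NCD and 13, 12 and 7 in HFD. Pooled, the HFD to NCD ratio was 1.14 for Fosb (exact 95% counting interval 0.261 to 6.86) and 1.43 for Ier3 (0.701 to 3.14). At this depth no difference was detectable for either.

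**Figure D2:**
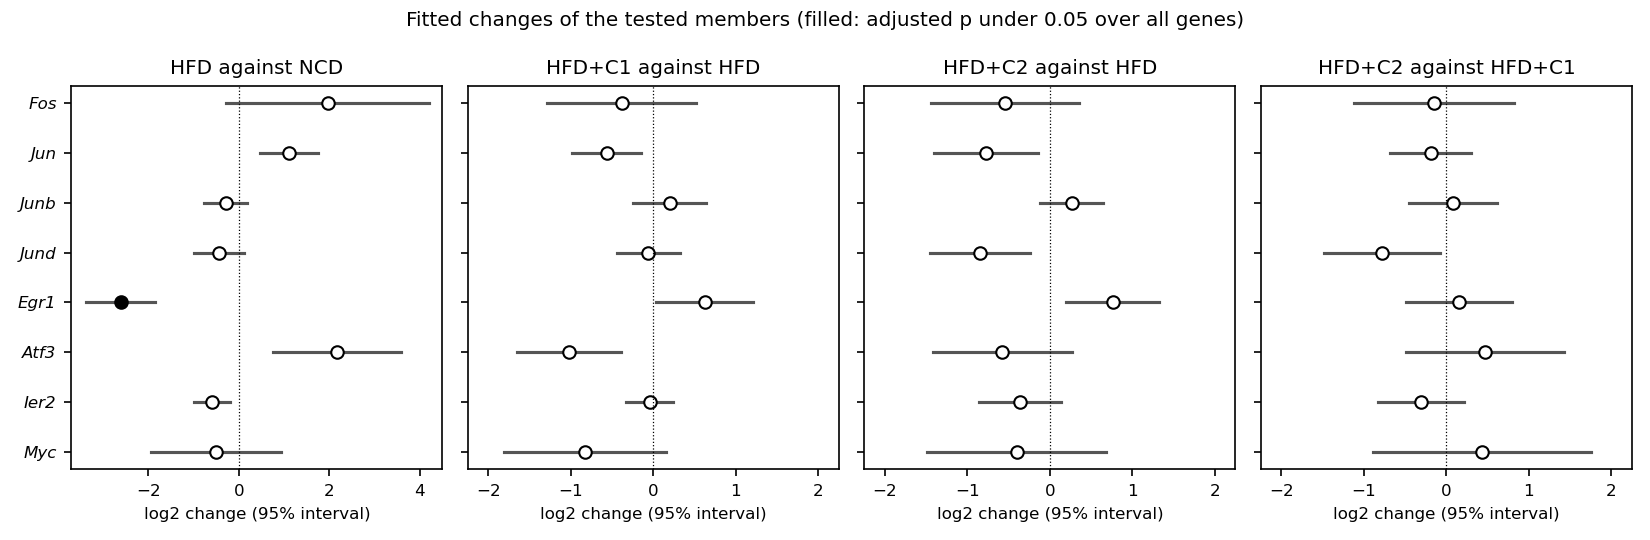
Log2 change (horizontal axis; the range is wider in the diet panel) with its 95% interval for the 8 tested members in 4 comparisons, from edgeR. The single filled point, with an adjusted p under 0.05, is Egr1 in HFD against NCD at -2.61.

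**Figure D3:**
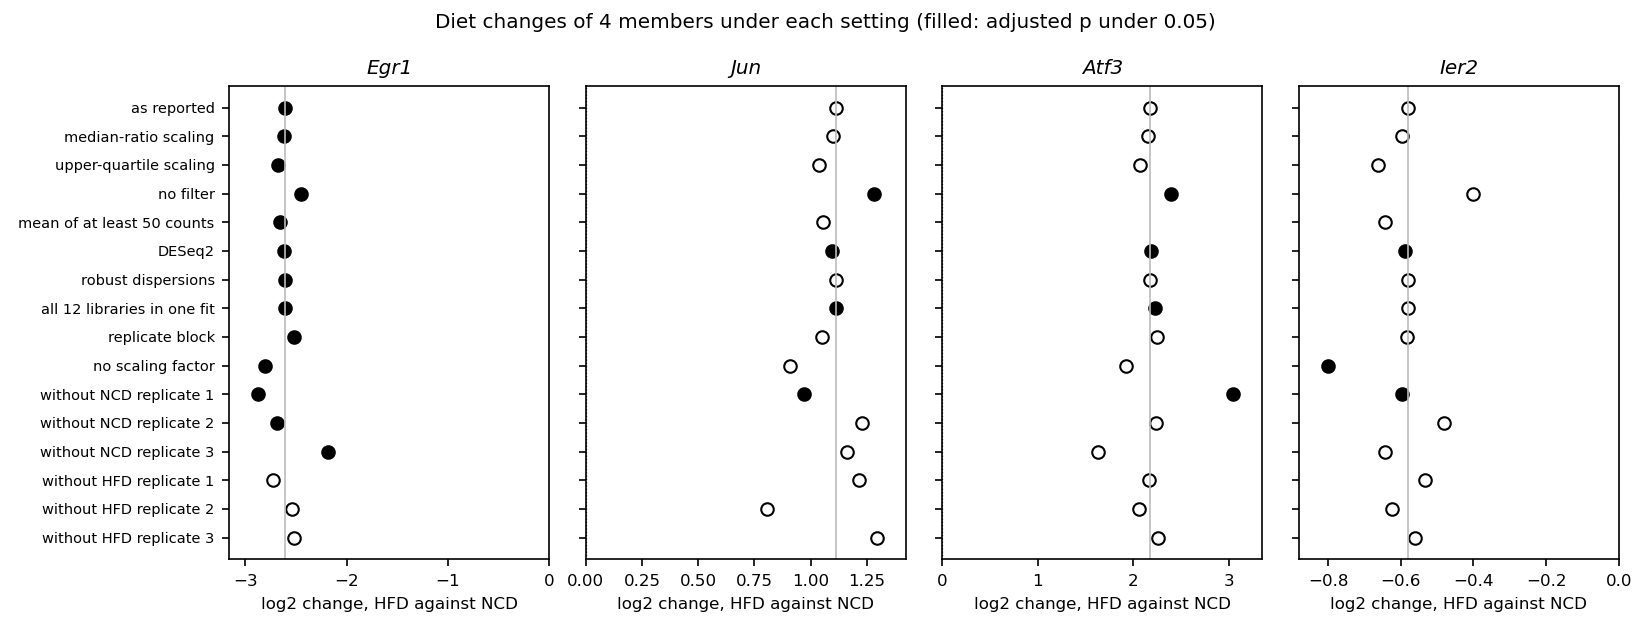
Log2 change of Egr1, Jun, Atf3 and Ier2 in HFD against NCD (horizontal axis) under each alternative setting and with each library left out; filled points had an adjusted p under 0.05 and the grey line is the reported value. Egr1 is open only where an HFD library is left out, while Jun, Atf3 and Ier2 are filled with DESeq2 and without NCD replicate 1.

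Other cell types were read beside these diet values. Of 7 stellate cell and fibroblast markers, Col1a1 and Col3a1 rose (log2 change 2.58 and 1.19, edgeR adjusted p 0.00927 and 0.0244), and of 6 endothelial markers Lyve1 rose (edgeR adjusted p 0.0361). These markers are named because they passed the test, as did 6.03% of all genes tested. The log2 change was below 0 for 2 of the 7 stellate and fibroblast markers and for 1 of the 6 endothelial markers. The call of Col1a1 was lost without HFD replicate 1 or 3, and those of Col3a1 and Lyve1 without NCD replicate 3 or any 1 HFD library. edgeR called 0 of 8 Kupffer cell and macrophage markers, with 3 at an unadjusted p under 0.05, 1 higher and 2 lower. The log2 change was below 0 for 5 of the 8 (median -0.33). DESeq2 called 1, Cd68, which went the other way, from a mean of 2.61 CPM in NCD to 5.55 CPM in HFD. The macrophage sum was 188 to 307 CPM in NCD and 168 to 225 CPM in HFD, and the stellate sum 78.0 to 104 and 101 to 124 CPM. The hepatocyte sum was 28600 to 76900 CPM in NCD and 90700 to 108000 CPM in HFD, without overlap. For 5 of the 6 hepatocyte markers the log2 change was above 0 (median 0.68). edgeR and DESeq2 called 0 of the 6, with 2 at an unadjusted p under 0.05 in edgeR, against 28.9% of all genes tested. Erythroid markers summed to 290 to 490 and 258 to 388 CPM, and T and NK cell markers to 1.69 to 5.16 and 0.991 to 1.83 CPM. B cell markers summed to 3.80 to 6.08 and 2.02 to 3.62 CPM, without overlap. Of the 3 B cell markers tested, 1 had a log2 change above 0 and 2 below 0. Cholangiocyte markers summed to 23.6 to 32.1 CPM in NCD and 33.0 to 39.7 CPM in HFD, without overlap. Of the 4 tested, however, 1 had a log2 change above 0 and 3 below 0 (median -0.44), so the sum does not describe the list. edgeR called 0 of 4, with 1 at an unadjusted p under 0.05, and DESeq2 called Spp1. Endothelial, monocyte and neutrophil sums overlapped, at 67.7 to 86.5 and 70.6 to 92.6 CPM, 18.1 to 34.0 and 24.3 to 39.3 CPM, and 0.844 to 3.61 and 0.991 to 2.06 CPM. The part of these cell types in the values of the immediate-early genes was not tested.

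The second comparison asked whether C1 moved these genes in HFD-fed mice. edgeR called 0 of the 8 members tested, against 0.0524% of 13358 genes, and DESeq2 also called 0, against 0.539%. An unadjusted p under 0.05 was reached by 3 members, Atf3, Jun and Egr1, against 7.75% of all genes, and 2 of 8 groups did not overlap, against 12.4%. The median log2 change was -0.22 over the members, with 6 of 8 below 0, and 0.0063 over all genes tested, with 48.8% below 0. The HFD libraries are shared by this comparison, the diet comparison and that of C2, so their values are not independent of one another.

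Atf3 was at 1.02, 0.868 and 0.744 CPM in HFD+C1, below every HFD library (1.55 to 2.05 CPM) and above every NCD library (0.164 to 0.688 CPM). Its log2 change against HFD was -1.02 (95% interval -1.65 to -0.39; unadjusted p 0.00394 and adjusted p 0.358 by edgeR). Leaving out 1 library moved it between -1.15 and -0.92 without a call.

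Jun was at 13.6, 12.7 and 13.9 CPM in HFD+C1, a narrow range just below the lowest HFD library (14.7 CPM). The difference from HFD was -0.57 on the log2 scale (95% interval -0.99 to -0.15; edgeR adjusted p 0.461). Leaving out 1 library moved it between -0.74 (without HFD replicate 3) and -0.26 (without HFD replicate 2, the library with the highest Jun). It was called when no filter on low counts was used (-0.57, edgeR adjusted p 0.0236), where 0.69% of all genes were called.

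Egr1 was at 3.25, 3.29 and 1.86 CPM in HFD+C1. These values overlapped HFD (1.63 to 2.16 CPM) through replicate 3 and stayed below NCD (7.65 to 16.4 CPM) in all 3 libraries. Their fitted difference from HFD was 0.62 on the log2 scale (95% interval 0.036 to 1.21; edgeR adjusted p 0.62). For the remaining members the groups overlapped: Fos was at 0.416 to 0.731 CPM in HFD+C1 (log2 change -0.38), Junb at 6.48 to 12.4 CPM (0.20), Jund at 61.3 to 105 CPM (-0.059), Ier2 at 11.9 to 14.8 CPM (-0.046) and Myc at 0.227 to 0.731 CPM (-0.83, 95% interval -1.82 to 0.16). Ier3 had 4, 7 and 4 reads and Fosb 2, 2 and 1.

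C2 was set against HFD in the same way. edgeR and DESeq2 each called 0 of the 8 members tested, against 0.0222% of 13503 genes with edgeR and 0.259% with DESeq2. An unadjusted p under 0.05 was reached by 3 members, Jund, Egr1 and Jun, against 6.89% of all genes, and 3 of 8 groups did not overlap, against 13.6%. The members' median log2 change was -0.47, with 6 of 8 below 0, and that of all genes tested 0.0163, with 47.8% below 0.

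Jund, the JUN family protein that is also present in resting cells, was at 25.9, 52.0 and 58.3 CPM in HFD+C2. All were below HFD (74.4 to 85.2 CPM), and the lowest was HFD+C2 replicate 1, which stood apart from its group. Against HFD the log2 change was -0.85 (95% interval -1.46 to -0.24; edgeR adjusted p 0.695). Without HFD+C2 replicate 1 it was -0.57 (unadjusted p 0.00141 and adjusted p 0.17 by edgeR), and without HFD+C2 replicate 3 it was -1.06. With no filter on low counts it was called (-0.85, edgeR adjusted p 0.0137), as were 0.531% of all genes.

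Egr1 was at 3.20, 2.50 and 3.68 CPM in HFD+C2, above every HFD library and below every NCD library. Its log2 change was 0.76 (95% interval 0.20 to 1.32; edgeR adjusted p 0.695), and 0.74 without HFD+C2 replicate 1. Jun was at 11.6, 8.33 and 15.3 CPM (log2 change -0.77; edgeR adjusted p 0.695), and the change ran from -1.003 without HFD+C2 replicate 3 to -0.45 without HFD replicate 2. With no filter on low counts Jun was called (-0.77, edgeR adjusted p 0.0409).

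Atf3 was spread widely, at 1.95, 0.704 and 1.05 CPM in HFD+C2. Replicate 1 lay within the HFD range and the other 2 libraries below it. The fitted change was -0.57 with all libraries and -1.05 without replicate 1 (edgeR adjusted p 0.71 and 0.314), and -0.29 without replicate 2. The low value of Ier2 was again that of replicate 1: it was at 7.45, 12.4 and 13.5 CPM (log2 change -0.36, -0.14 without that library and -0.52 without replicate 3).

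Junb was at 8.95, 9.78 and 10.9 CPM in HFD+C2, just above the highest HFD library (8.71 CPM), with a log2 change of 0.27 and a 95% interval of -0.12 to 0.65. By the gene total alone these groups overlapped. Fos was at 0.350 to 0.586 CPM (log2 change -0.54, 95% interval -1.44 to 0.36) and Myc at 0.313 to 1.13 CPM (-0.40, 95% interval -1.49 to 0.68, and -0.99 to -0.05 with 1 library left out). Ier3 had 2, 5 and 6 reads, a pooled ratio to HFD of 0.485 (exact 95% counting interval 0.234 to 0.95, which leaves out the spread between libraries), and Fosb had 0, 2 and 1.

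Macrophage markers stood beside both compound comparisons. Under C1 the log2 change was above 0 for 8 of 8 Kupffer cell and macrophage markers (median 0.68), 7 with an unadjusted p under 0.05 and 0 called by edgeR, while DESeq2 called 4 (Adgre1, C1qa, Cd5l and Clec4f). Under C2 it was above 0 for 8 of 8 (median 0.75), 6 with an unadjusted p under 0.05 and 0 called by edgeR or DESeq2. Their sum was 168 to 225 CPM in HFD, 272 to 357 CPM in HFD+C1 and 218 to 464 CPM in HFD+C2. Monocyte markers summed to 24.3 to 39.3, 45.9 to 57.2 and 41.2 to 70.2 CPM. Most of that sum was Lyz2, with group means of 29.6, 49.6 and 51 CPM. Ccr2 was at 0.82, 0.802 and 0.766 CPM and Ly6c2 at 0.248, 0.334 and 0.26 CPM. Of the 2 monocyte markers tested, 1 was above 0 and 1 below 0 under each compound, and DESeq2 called Lyz2 under C1. Of 5 erythroid markers, 5 were below 0 under C1 (median -0.60) and 3 under C2. Under C1, 3 of them had an unadjusted p under 0.05 and DESeq2 called Hba-a2. Of 6 endothelial markers, 5 were above 0 under C1 and 6 under C2, where 2 had an unadjusted p under 0.05. edgeR called 0 in these lists. Of all genes tested, 7.75% under C1 and 6.89% under C2 reached that p. Neutrophil markers summed to 0.991 to 2.06, 1.12 to 2.60 and 1.13 to 6.60 CPM, and cholangiocyte markers to 33.0 to 39.7, 37.9 to 66.2 and 33.2 to 53.2 CPM. Hepatocyte markers summed to 103000 to 112000 CPM in HFD+C1 and 80100 to 150000 CPM in HFD+C2. Their part in the values of the members was not tested.

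C1 and C2 were compared directly at their common dose, 1 pair of compounds. The labels do not give their structures, so no structural difference is named. edgeR and DESeq2 each called 0 of 8 members, against 0% of 13229 genes with edgeR and 0.0227% with DESeq2, and 1 member, Jund, had an unadjusted p under 0.05, against 4.6% of all. Jund was also the only member of the 8 whose groups did not overlap, against 12% of all genes tested, and they did overlap by the gene total alone. The log2 change was below 0 for 4 of 8 members and for 48.3% of all genes. Jund was at 105, 61.3 and 68.2 CPM in HFD+C1 and at 25.9, 52.0 and 58.3 CPM in HFD+C2 (log2 change -0.78, 95% interval -1.49 to -0.072, edgeR adjusted p 0.841). Without HFD+C2 replicate 1 or HFD+C1 replicate 1 it was -0.50 or -0.51, and without HFD+C2 replicate 3 it was -0.99. With no filter it was called (-0.78, edgeR adjusted p 0.0246), as were 0.551% of all genes. The intervals of the other differences, C2 minus C1 on the log2 scale, were -0.68 to 0.30 for Jun, -0.45 to 0.61 for Junb, -0.49 to 0.79 for Egr1, -0.50 to 1.42 for Atf3, -0.83 to 0.21 for Ier2, -1.12 to 0.82 for Fos and -0.90 to 1.75 for Myc. Without HFD+C2 replicate 1 the difference was -0.019 for Atf3 (0.46 with all libraries), -0.091 for Ier2 (-0.31), 0.0093 for Fos (-0.15) and 0.14 for Junb (0.08). These intervals are too wide to show that the compounds act alike on any member.

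The makeup of the FOS and JUN family was read per kilobase of exon over Fos, Fosb, Fosl1, Fosl2, Jun, Junb and Jund. Jund gave most of it in every library, between 66.1% (HFD+C2 replicate 1) and 93.4% (NCD replicate 1), the same 2 libraries that stood apart in unassigned reads. Jun gave 4.28% ± 1.74 of the family in NCD, 10.5% ± 3.91 in HFD, 7.81% ± 1.60 in HFD+C1 and 11% ± 4.38 in HFD+C2 (SD, n = 3). The ranges were 2.38% to 5.79% in NCD and 7.73% to 15.0% in HFD and did not overlap. Junb gave 5.26% to 6.54% in HFD and 10.5% to 16.5% in HFD+C2. A share also depends on the rest of the sum, which was mostly Jund. Mean Jund was 48.8 CPM per kilobase in HFD and 27.2 in HFD+C2. Mean Junb was 3.55 and 4.29 CPM per kilobase in these groups, and mean Jun 6.23 and 3.68. Fos, Fosb and Fosl2 together stayed small: Fosl2 gave at most 1.27% and Fos at most 0.662%, and Fosl1 had 0 reads in all 12 libraries. The family's sum was 57.9 to 60.7 CPM per kilobase in HFD, 46.9 to 71.6 in HFD+C1, 23.5 to 45.2 in HFD+C2 and 58.3 to 99.9 in NCD, so all 3 HFD+C2 libraries lay below the 9 others. These shares rest on transcripts, not on protein, and no test was run on them.

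**Figure D4:**
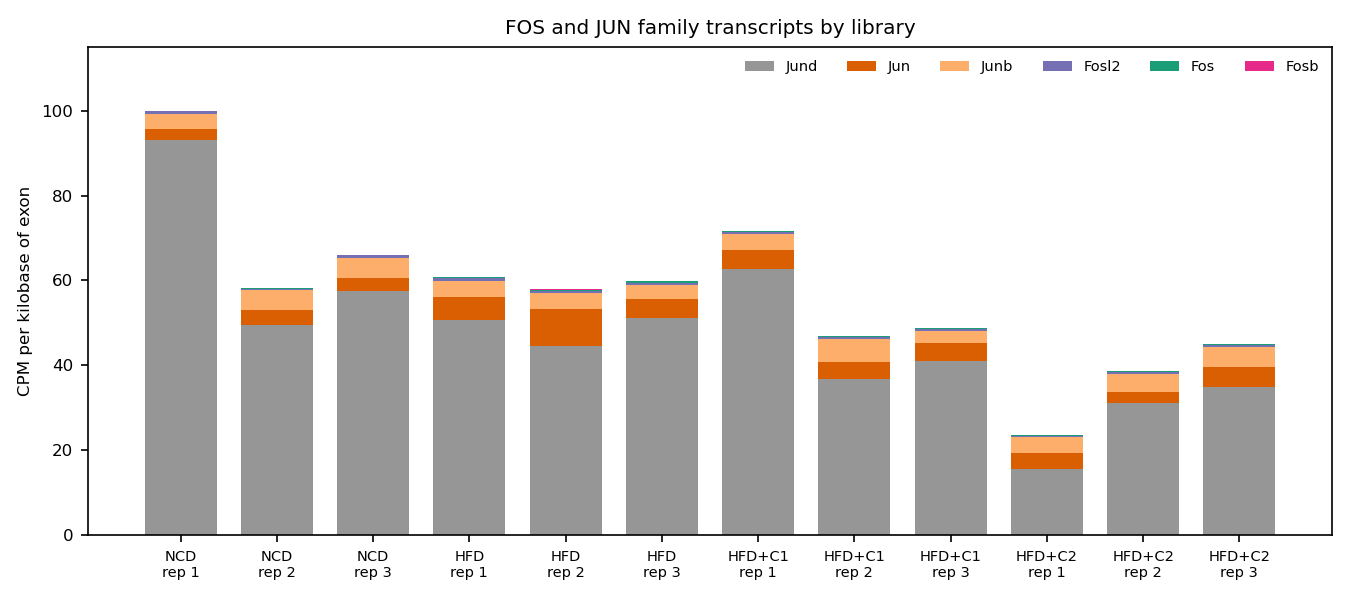
Stacked CPM per kilobase of exon (vertical axis, linear from 0) of FOS and JUN family genes in each of the 12 libraries. Grey Jund makes up 66.1% to 93.4% of every bar, and the bars of HFD+C2 are the lowest, at 23.5 to 45.2.

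Companion genes were taken from 6 lists of the same pathways. Among 30 other immediate-early genes, 24 were tested in each comparison, and edgeR called 0 for the diet, C1, C2 or C2 against C1. An unadjusted p under 0.05 was reached by 5, 6, 4 and 2 of them, against 28.9%, 7.75%, 6.89% and 4.6% of all genes tested. DESeq2 called Klf10 for the diet, Cebpb for C2 and 0 in the other comparisons. It called 16.6% of all genes for the diet and 0.259% for C2. The list's median log2 change was 0.0149 with the diet, -0.24 with C1 (20 of 24 below 0) and -0.31 with C2 (19 of 24 below 0). Of all genes tested, 48.8% were below 0 for C1 and 47.8% for C2, and the HFD libraries are common to both. Klf10, a TGF-beta-induced repressor, was at 1.69 to 4.93 CPM in NCD and 7.12 to 16.3 CPM in HFD (log2 change 1.58, edgeR adjusted p 0.0652). Klf2 was at 4.43 to 7.39 and 2.40 to 3.62 CPM (-0.89, edgeR adjusted p 0.103). Plk3, a stress-responsive kinase, was at 9.48 to 19.4 CPM in HFD and 2.83 to 8.93 CPM in HFD+C1 (-1.14, edgeR adjusted p 0.358). Cebpb, a zipper factor of acute-phase and gluconeogenic genes, was at 27.8 to 43.1 CPM in HFD and 13.7 to 20 CPM in HFD+C2 (-1.07, edgeR adjusted p 0.625). Trib1, which marks C/EBP proteins for degradation, was at 24.0 to 28.4 CPM in HFD, 17.2 to 23.7 in HFD+C1 and 14.1 to 19.6 in HFD+C2 (-0.42 and -0.68, edgeR adjusted p 0.437 and 0.695).

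Feedback inhibitors shut these genes off again. Of 18 tested for the diet, 1 fell and 0 rose, by edgeR and by DESeq2, which called 6.03% and 16.6% of all genes tested. Zfp36, which binds and destabilises AU-rich messages such as that of Fos, fell from 30.6, 28.7 and 29.0 CPM in NCD to 16.5, 17.4 and 18.1 CPM in HFD (log2 change -0.74, edgeR adjusted p 0.0402). The NCD and HFD values of Zfp36 were each within a narrow range. The medians of this list were -0.25 with the diet, -4e-04 with C1 and 0.0532 with C2. Of the 18 and 17 tested under C1 and C2, 0 were called by edgeR or DESeq2. An unadjusted p under 0.05 in edgeR was reached by 4 and 3, against 7.75% and 6.89% of all genes tested. Tob1, an antiproliferative adaptor, was at 87.3 to 91.1 CPM in HFD and 44.9 to 66.7 CPM in HFD+C2 (-0.62), and Zfp36l2 was at 11.7 to 14.3 and 17.6 to 26.7 CPM (0.72), both with an edgeR adjusted p of 0.695.

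Of 25 upstream kinases and serum response factor genes, all were tested and edgeR called 1 for the diet, against 6.03% of all genes tested. Rps6ka1, a kinase downstream of ERK, rose from 4.30, 7.80 and 5.51 CPM in NCD to 16.1, 11 and 15.2 CPM in HFD (log2 change 1.32, edgeR adjusted p 0.0386). DESeq2 called 4 of the 25, Egfr among them, and 16.6% of all genes tested. Under C1 and C2 edgeR and DESeq2 called 0 of these 25, with 1 each at an unadjusted p under 0.05 in edgeR. That p was reached by 7.75% and 6.89% of all genes tested. Egfr, the epidermal growth factor receptor that signals to ERK, was at 136 to 303 CPM in NCD, 42.6, 154 and 48.3 CPM in HFD, 72.8 to 98.9 CPM in HFD+C1 and 152 to 200 CPM in HFD+C2. Its C2 minus C1 difference was 0.98 on the log2 scale (95% interval 0.57 to 1.40; unadjusted p 0.000475 and adjusted p 0.841 by edgeR), with no overlap between those groups. DESeq2 called it.

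Of 16 tested AP-1 and ATF partners, edgeR called 0 for the diet, with 3 at an unadjusted p under 0.05, against 28.9% of all genes tested. DESeq2 called 3 of the 16 (Atf4, Atf5 and Atf6) and 16.6% of all genes tested. Under C1 and C2 both tools called 0 of 17. Atf4, the effector of the integrated stress response, was at 171 to 285 CPM in NCD and 114 to 135 CPM in HFD (log2 change -0.80, edgeR adjusted p 0.0621). Fosl2 was at 4.81 to 6.57 CPM in HFD, 3.86 to 4.71 in HFD+C1 and 2.90 to 4.39 in HFD+C2 (-0.40 and -0.60, edgeR adjusted p 0.652 and 0.695), with no overlap of either compound group with HFD.

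In the MYC network, edgeR called 1 of 12 tested genes for the diet, and DESeq2 2, adding Mxd4, against 6.03% and 16.6% of all genes tested. Mlxipl, the glucose-sensing factor ChREBP, fell from 121, 92.0 and 91.0 CPM in NCD to 58.2, 59.1 and 60.3 CPM in HFD (log2 change -0.75, edgeR adjusted p 0.046). Of 20 MYC target genes, edgeR called 1 for the diet and DESeq2 6, where edgeR called 6.03% and DESeq2 16.6% of all genes. Srm, the spermidine synthase, rose from 6.96, 9.49 and 9.04 to 16.7, 15.6 and 14.4 CPM (0.90, edgeR adjusted p 0.0426). The other DESeq2 calls, Eif4e, Fbl, Hspd1, Npm1 and Odc1, had lower means in HFD than in NCD. In edgeR an unadjusted p under 0.05 was reached by 3 targets that rose and 6 that fell, against 28.9% of all genes tested. The target list's median was -0.21, with 12 of 20 below 0, beside a fitted Myc change of -0.51 that did not pass the test. Over all genes tested the median was -0.0216, with 51.5% below 0. Under C1 and C2 edgeR and DESeq2 called 0 genes of either list, with 1 each at an unadjusted p under 0.05 in edgeR. That p was reached by 7.75% and 6.89% of all genes tested. The diet calls of Zfp36, Rps6ka1, Mlxipl and Srm each held without NCD replicate 1 or 2 and were lost without NCD replicate 3 or without any 1 HFD library, with the direction kept (edgeR adjusted p 0.0601 to 0.223). With no filter on low counts Zfp36 and Mlxipl were not called (edgeR adjusted p 0.119 and 0.115), nor was Srm without a scaling factor (edgeR adjusted p 0.055). The neural relative Mycn was at 1.46 to 2.09 CPM in HFD and 0.704 to 1.00 CPM in HFD+C2 (-1.04, edgeR adjusted p 0.695).

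**Figure D5:**
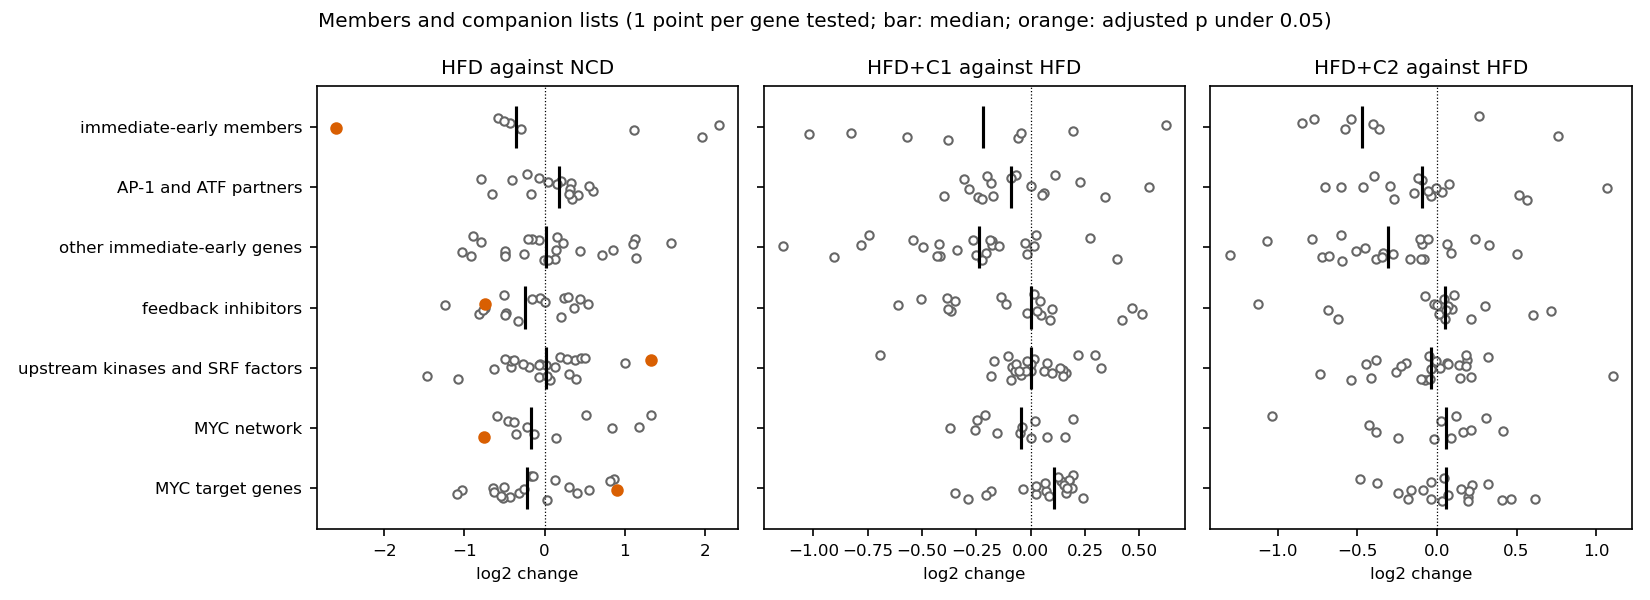
Log2 change (horizontal axis; each panel has its own range) of every tested gene of the members and 6 companion lists in 3 comparisons, with the list median as a bar. Orange points had an edgeR adjusted p under 0.05 and occur in HFD against NCD only: Egr1, Zfp36, Rps6ka1, Mlxipl and Srm.

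Among the 5 genes whose levels were most like those of Egr1 over the 12 libraries were Igfbp2 (Pearson r 0.975, Spearman rho 0.937), LOC118567332 (0.947, 0.832), Avpr1a (0.944, 0.874) and Pnp (0.935, 0.769), out of 13466 genes ranked on log2(CPM + 1). These 4 share the split between 3 NCD and 9 high-fat libraries: Igfbp2, an insulin-like growth factor binding protein, was at 373, 454 and 594 CPM in NCD and at 137 to 187 CPM in the others. For Fos the 5 included Iqce (0.914, 0.86), Nbas (0.909, 0.923), Krba1 (0.907, 0.874) and Chrna2 (0.902, 0.72). Fos had at most 22 reads in a library, and each of these 4 genes was lowest in NCD replicate 1, where Fos had 0 reads. These correlations are descriptions of the same libraries and carry no test.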

How the data were processed

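Liver RNA was sequenced in 12 libraries, 3 per group. The authors deposited 3 tables of read counts per gene; they are called normalized by name, but the values are unscaled whole numbers, and the HFD columns were identical in all 3 (0 cells differed). Trimmomatic 0.39, STAR 2.7, DESeq2 and the build mm10 are named in the submitters' processing notes, without roles; annotation and strand use are not given in the sources used here. The 4 rows that name no gene were left out of library sizes (27.3% to 58.2% of reads). Genes averaging 10 counts or more across the 6 libraries of a comparison were tested with edgeR 4.0.16 (R 4.3.3; quasi-likelihood, TMM, two-sided, Benjamini-Hochberg over all genes tested); standard errors are the log2 change over the square root of F. DESeq2 1.42.0, other scalings and filters, a replicate block and leaving out libraries were alternatives; dropping the scaling factor was added after seeing the data. A count of 3 was taken as the floor (0.0996 to 0.633 CPM). Exon lengths came from GENCODE M21 (GRCm38); promoters from RefSeq (GRCm38.p6). The edgeR step was tested on simulated counts with known changes. At a log2 change of 1 it recovered 5.1% for the diet, 77.1% for C1, 41.1% for C2 and 45.4% for C2 against C1. At a log2 change of 2 it recovered 65.7%, 95.8%, 92.4% and 91.3%. The labels call replicates biological; whether a library is 1 animal is not stated, so p-values measure the spread between libraries. Members and lists were chosen with earlier results of these data known. Named were all members, and per companion list and comparison the called genes or, with none, up to 2 of smallest p; marker and other genes outside this rule are named because a tool called them; likeness was ranked for Fos and Egr1, 5 genes each. Some genes that the rule selects are not reported here.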

Additional observations from a re-analysis of the deposited data

How the results depend on the processing

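The count of members called for the diet, 1 as reported, was 3 with no filter on low counts (Atf3, Egr1, Jun), 4 with DESeq2 (Atf3, Egr1, Ier2, Jun), 3 with all 12 libraries in one fit (Atf3, Egr1, Jun) and 2 without a scaling factor (Egr1, Ier2), and ran from 0 to 4 with 1 library left out. With no filter it was 1 for C1 (Jun), 2 for C2 (Jun, Jund) and 1 for C2 against C1 (Jund), each against 0 as reported. Of all genes, no filter called 1742 higher and 2751 lower for the diet, and 0.69%, 0.531% and 0.551% in these 3 comparisons. For the diet DESeq2 called 933 higher and 1365 lower, and the fit of all 12 libraries 1023 and 1395. With no filter the median diet change of the genes tested as reported was 0.16, against -0.0216. The cause of these differences was not tested. Over 32 member results, 435 of 465 alternative values kept direction and side of the threshold. Signs turned only with 1 library left out: under C1 the range was -0.11 to 0.049 for Ier2, -0.061 to 0.40 for Junb and -0.34 to 0.089 for Jund, and for C2 against C1 it was -0.33 to 0.17 for Fos, -0.12 to 0.34 for Junb, -0.066 to 0.29 for Egr1, -0.019 to 0.75 for Atf3, -0.43 to 0.0029 for Jun and -0.17 to 0.79 for Myc. Calls over all genes ranged from 23 to 4493 for the diet (836 as reported), 0 to 206 for C1 (7), 0 to 152 for C2 (3) and 0 to 162 for C2 against C1 (0). Without a scaling factor the median diet change of all genes was -0.24, and 241 genes were called higher and 864 lower, against 359 and 477. In a fit with a replicate block (blocking on replicate number), 1 member was called for the diet, and 0 in the other comparisons. The diet calls of Zfp36, Rps6ka1, Mlxipl, Srm and Lyve1 were lost there (edgeR adjusted p 0.0606 to 0.0764). Same-numbered libraries of NCD and HFD correlated at -0.04, 0.29 and -0.14 in their deviations from group means, and different-numbered ones at -0.34 to 0.33. With 3 libraries per group these values cannot decide whether the numbers pair libraries. Depth limits Fos, Fosb, Ier3 and Myc, which had at most 37 reads in a library.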
